A study of Mus musculus with 8 samples.

Results

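The mitochondrial ribosomal proteins are the nuclear-encoded proteins of the ribosome inside mitochondria. They were taken as every gene of the authors' deposited table whose symbol starts with Mrpl or Mrps followed by a digit, leaving out pseudogenes. This gave 77 of the 16133 genes in the table, and all 77 had an adjusted p-value. Of these, 50 code for the large subunit and 26 for the small subunit. The last, Mrps36, carries the family name but its protein is known as part of the 2-oxoglutarate dehydrogenase complex. The label was checked against these roles and held for the other 76 genes.

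The study compared livers of mice labelled METTL14Alb, called knockout in the titles (here KO), with livers of METTL14f/f mice, called wild-type (here WT). METTL14 works with METTL3 as the mRNA writer of the mark m6A (N6-methyladenosine). By the usual meaning of its name, METTL14Alb is a deletion driven from the albumin promoter and so aimed at hepatocytes, and the f/f allele is floxed. Every mouse, WT included, was given tunicamycin, an inhibitor of N-glycosylation that stresses the endoplasmic reticulum, at 2 mg/kg into the peritoneum for 24 hours. Polyadenylated liver RNA was sequenced as input and as RNA pulled down by an m6A antibody, with 2 libraries in each of the 4 groups. Age, sex and liver RNA without tunicamycin were not analysed here. Whether a group's libraries are from different mice is not stated in the labels, and p-values reflect the spread between libraries alone, which may be technical.

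Mitochondria keep a small genome that codes for core subunits of the respiratory chain, and the mitochondrial ribosome makes these proteins at the inner membrane. All of its proteins are coded in the nucleus, made in the cytosol and imported, and are assembled on ribosomal RNAs transcribed inside the organelle. Some descend from bacterial ribosomal proteins and others were gained during mitochondrial evolution. In liver this machinery serves a high oxidative capacity.

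Promoter sequences of a few members are shown first, since motif cores and shared starts are described below. RefSeq promoters (GRCm38.p6, the assembly behind mm10; 250 bases before to 50 after a start) matched 68 of the 77 members and gave 74 starts. The lines give the bases just before the start, 5′ to 3′ on the gene's strand, with matches in capitals to the core of the ETS family that includes GABP (CCGGAAG) or to the NRF1 core (GCGCATGC), on either strand. Chosen were starts with no other RefSeq gene in the printed stretch: Mrpl34 and Mrpl17, which were called lower in KO, Mrpl3, Mrps22 and Mrpl32, which were not called, and Mrpl47, which was called lower and holds neither core there. The line for Mrps11 is the whole stretch between its start and that of Mrpl46 on the other strand.
Mrpl34, chr8:71464826-71464925, plus strand: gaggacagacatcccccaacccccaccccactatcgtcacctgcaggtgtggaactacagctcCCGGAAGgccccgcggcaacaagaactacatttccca
Mrpl17, chr7:105811088-105811187, minus strand: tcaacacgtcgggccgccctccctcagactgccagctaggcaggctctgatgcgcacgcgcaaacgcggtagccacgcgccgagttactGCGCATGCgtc
Mrpl3, chr9:105053168-105053267, plus strand: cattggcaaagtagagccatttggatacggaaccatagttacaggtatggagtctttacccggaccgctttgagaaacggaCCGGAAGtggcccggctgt
Mrps22, chr9:98601680-98601779, minus strand: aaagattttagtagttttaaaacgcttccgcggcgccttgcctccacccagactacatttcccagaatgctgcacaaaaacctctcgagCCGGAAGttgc
Mrpl32, chr13:14613038-14613137, minus strand: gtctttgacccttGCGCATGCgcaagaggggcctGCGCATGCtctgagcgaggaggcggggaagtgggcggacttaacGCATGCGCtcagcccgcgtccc
Mrpl47, chr3:32736756-32736855, minus strand: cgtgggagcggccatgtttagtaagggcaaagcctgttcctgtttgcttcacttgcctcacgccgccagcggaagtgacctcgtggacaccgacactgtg
Mrps11, chr7:78783090-78783130, plus strand: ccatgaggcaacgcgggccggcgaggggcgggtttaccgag

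GABP, NRF1 and YY1 are known regulators of nuclear genes for mitochondrial proteins. The ETS core was in 25 of the 74 member promoters (33.8%), against 15.9% of 13637 promoters of tested genes and 8.86% of all 32851 promoters. The NRF1 core was in 8 (10.8%), against 4.74% and 2.71%. The YY1 core (AAGATGGC) was in 12 (16.2%), against 4.03% and 2.75%. Of the 12 YY1 matches, 8 lay at or after the start, whereas 17 of 29 ETS matches and 9 of 14 NRF1 matches lay in the 100 bases before it. In Mrpl32 the core and its reverse complement overlap at the first capital stretch, so that place counts on both strands. The reverse complement there runs on into the lower-case letters gc. The GC box (GGGCGG) was in 52.7% of member promoters and 59.3% of those of tested genes. The E-box (CACGTG), which reads alike on both strands, was in 9.46% and 9.56%. The letters TGATGCAA, the composite core of ATF4 and C/EBP, were in 0 of the 74 and in 0.682% of promoters of tested genes. An ETS core was held by 13 of 33 members called lower, 11 of 31 not called and 1 of 4 called higher.

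The deposited means hold enough digits to give back the read counts of the 4 input libraries for 15868 genes (98.4%), including all 77 members. Estimated totals, which add the genes without recovered counts by the deposited mean and fold change, were 12710906 and 12272980 reads in the KO libraries (KO A and KO B) and 16839863 and 13483356 in the WT libraries (WT A and WT B). The header of the deposited table leaves the numerator of the fold change open, so every direction below rests on a reading as KO over WT: of 347 genes above a log2 value of 2, 156 had an m6A peak listed for KO alone and 0 for WT alone, and of 403 genes below -2, 30 and 46 did. In the authors' deposited table Mettl14 itself had a log2 change of -0.50 ± 0.41 (SE, adjusted p = 0.342), with 64.6 and 62.0 normalized counts in KO and 79.8 and 99.7 in WT. Of 11 hepatocyte markers with a value, 9 were called lower and 1 higher, with a median of -1.78. Summed cholangiocyte markers were 4610 and 3617 normalized counts in KO and 821 and 995 in WT (7 of 8 called higher; Cftr was at 0 in both WT libraries and Krt7 in WT B). Summed stellate cell markers were 9797 and 7018 in KO and 3926 and 3085 in WT (5 of 8 called higher). Macrophage markers had a median log2 change of -0.21 (1 of 8 called higher, 2 lower) and summed to 4949 and 4482 in KO and 3919 and 3318 in WT. Without Cd68, the marker called higher, the other 7 summed to 2925 and 1817 in KO and 3751 and 3111 in WT. Endothelial markers summed to 2701 and 2377 in KO and 2651 and 1997 in WT (1 called lower), and lymphocyte markers to 196 and 179 in KO and 166 and 183 in WT (0 of 7 tested called). These shifts in markers run with genotype through every result below, and their part in the members' changes was not tested. In bulk liver, fewer cells of a type and less RNA per cell cannot be told apart.

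Most mitochondrial ribosomal protein mRNAs lay lower in KO liver relative to other genes, by modest amounts. In the authors' deposited table, 37 of the 77 were called lower in KO (DESeq2 adjusted p below 0.05), 5 were called higher and 35 were not called. Over all 14257 tested genes, 22.2% were called lower and 20.4% higher, and over the 9202 tested genes averaging at least 100 counts 31.4% and 20.8%, while the members called lower were 48.1%. The members' median log2 change was -0.51, with quartiles of -0.80 and -0.25, and 60 of 77 (77.9%) were below 0. The median over all tested genes was 0.046, with 48.3% below 0, and over those 9202 genes it was -0.15, with 56.8% below 0. The members' log2 changes had an SD of 0.55, against 1.25 in the 9202 genes, and the members' median SE was 0.23.

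These directions hold at the authors' size factors and depend on the scaling. Normalized counts of all members summed to 39560 and 43478 in KO A and B and to 56545 and 53136 in WT A and B, so both KO libraries lay below both WT libraries. As a share of the estimated total they took 0.391% (95% Wilson interval 0.387 to 0.394) and 0.417% (0.413 to 0.421) of reads in KO and 0.311% (0.309 to 0.314) and 0.293% (0.29 to 0.296) in WT, the opposite order. That order rests on the estimated part of the totals, since recovered reads made up 59.2% and 60.4% of them in KO and 45.2% in both WT libraries. Of the recovered reads alone the members took 0.659% (0.654 to 0.665) and 0.69% (0.684 to 0.696) in KO and 0.689% (0.683 to 0.695) and 0.647% (0.641 to 0.653) in WT, so the genotypes overlapped. All these intervals cover counting error only and leave out the error of the estimated part. When libraries were scaled to equal estimated totals and refitted with limma, 35 members were called higher and 1 lower, with a median log2 change of 0.31. In that fit 51.6% of 15868 genes were called higher and 6.23% lower, and the median of all genes was 0.87. Scaled to equal recovered reads, an alternative added after seeing the data, 17 members were called higher and 15 lower in limma, with a median of -0.097, against 34.6% and 11.3% of all genes and a median of 0.51. A scaling moves all genes by nearly the same amount, so it sets the sign of a median and leaves the order of genes and lists as it is. In the text below, "total-count scaling" means equal estimated totals, and "fell" and "rose" are relative to the authors' size factors.

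**Figure D1:**
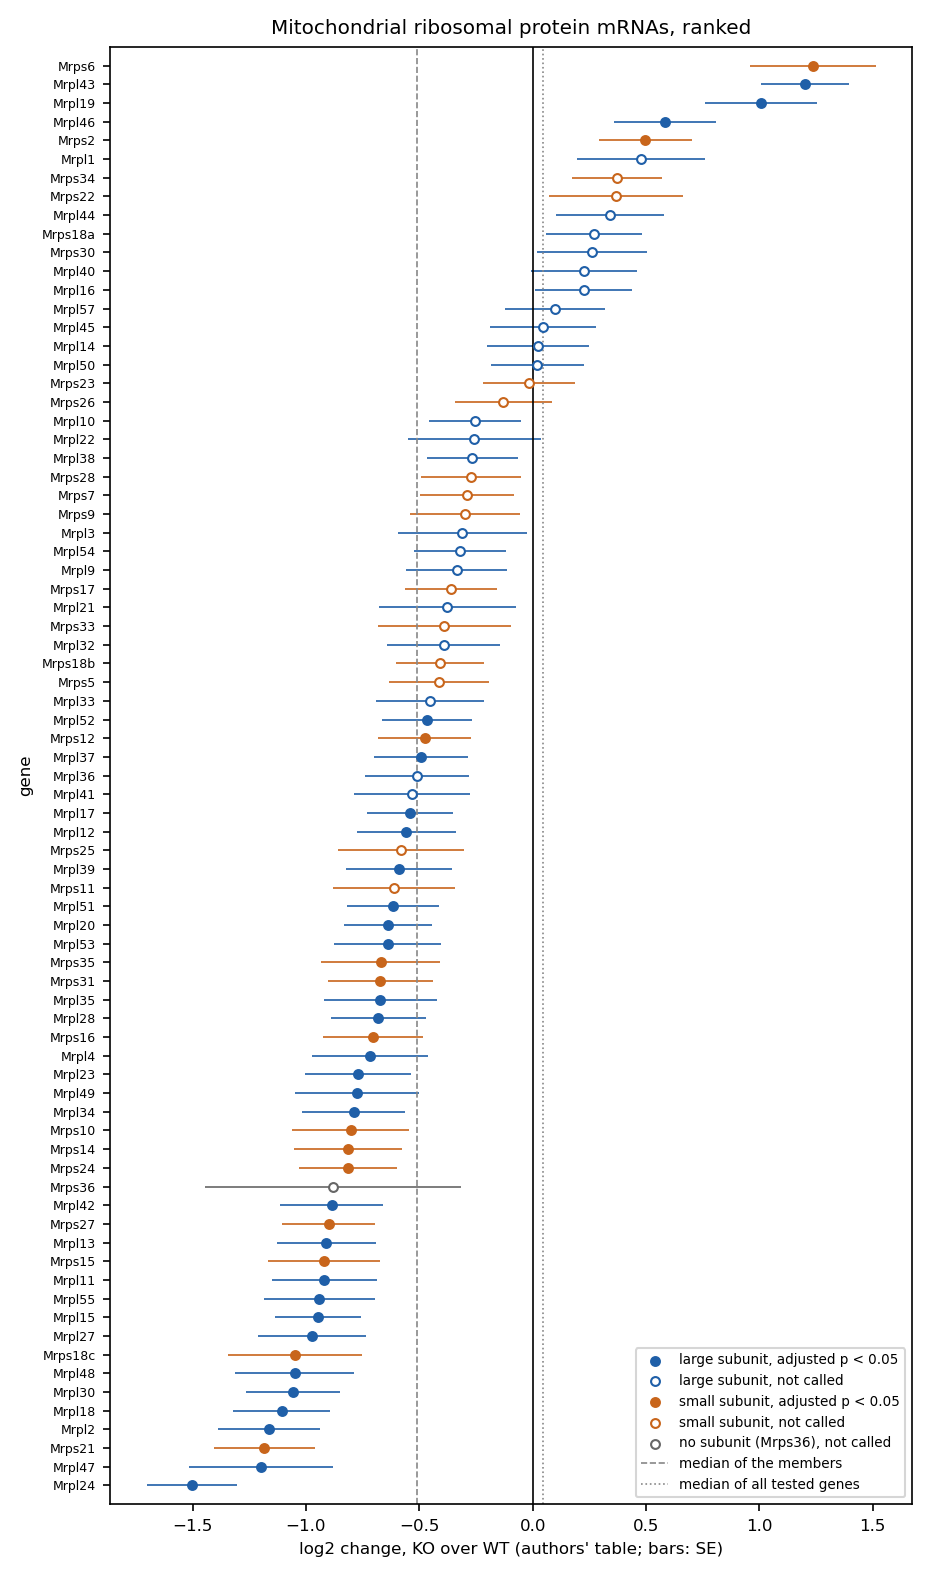
Log2 change of each of the 77 members, KO over WT, from the authors' deposited table; bars are SE, filled points passed an adjusted p of 0.05, and colours give the subunit. Points run from -1.50 (Mrpl24) to 1.24 (Mrps6), and 60 of 77 lie left of 0 at the authors' size factors.

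**Figure D2:**
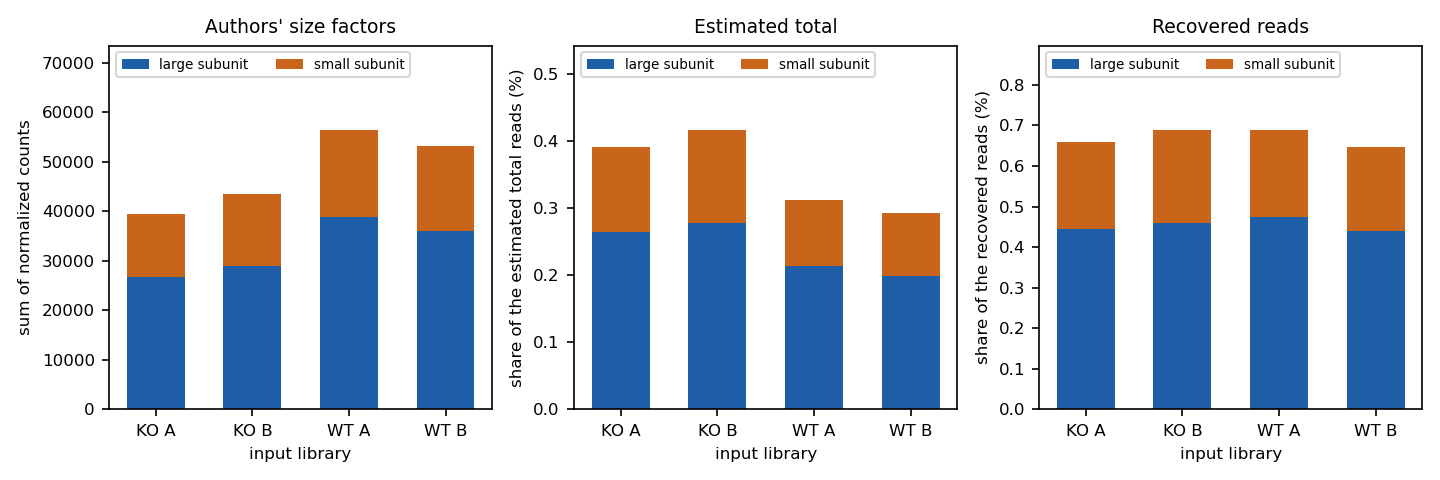
Summed reads of the large and small subunit genes in each input library, as normalized counts (left), as a percentage of the estimated total reads (middle) and of the recovered reads (right). KO bars are the lower ones on the left and the higher ones in the middle, and on the right the genotypes overlap.

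Single libraries separated by genotype for most members. In 58 members both KO libraries lay below both WT libraries and in 13 above them, with overlap in 6. Over the 12582 genes averaging at least 10 counts the shares were 38.7% below and 40.2% above. Of the 8937 recovered genes averaging at least 100 counts, 4150 lay below and 3171 above. With total-count scaling 10 members lay below and 49 above, and no share over all genes is given for that scaling. Within a genotype the members differed little: KO B over KO A had a median log2 ratio of 0.092 and WT B over WT A of -0.051, and 0 of 77 were 2-fold apart in either genotype. Of all 77 members 8 were called lower and fell at least 2-fold, against 1801 of all 14257 tested genes (12.6%), so the members were not richer in such falls. Refitted with limma at the authors' size factors, 5 were called higher and 40 lower. Leaving out 1 library kept the sign of all 42 called members. The members' median then ran from -0.54 (without WT B) to -0.45 (without KO A), but fewer members and fewer genes at large were called. The library left alone is there assumed to vary like the other genotype.

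Of the members that rose, 2 code for the small subunit and 3 for the large one. Mrps6, the counterpart of bacterial S6 (chr16:92058336-92112227), had 308 and 354 normalized counts in KO and 142 and 139 in WT, a log2 change of 1.24 ± 0.28 (SE, adjusted p = 4.68e-05) in the authors' deposited table. Mrpl43, a protein gained in mitochondria (chr19:45005014-45006442), had 1752 and 1976 in KO and 839 and 781 in WT, and 1.20 ± 0.19 (adjusted p = 6.68e-09) in the authors' deposited table. Mrpl19, the counterpart of bacterial L19 (chr6:81957826-81965949), had 479 and 502 in KO and 267 and 220 in WT, and 1.01 ± 0.25 (adjusted p = 0.000207) in the authors' deposited table. In each of these, named as called rises, the KO libraries lay above the WT libraries. Mrpl46, also specific to mitochondria, had 615 and 761 in KO and 461 and 457 in WT, with 0.58 (adjusted p = 0.0253) in the authors' deposited table. Mrps2, the counterpart of bacterial S2, had 1024 and 1210 in KO and 784 and 799 in WT, with 0.50 (adjusted p = 0.0366) in the authors' deposited table. For both of these, KO again lay above WT, by smaller steps.

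Several of these genes share their locus, and whether the authors' counting used strand is not stated in the sources used here, so reads of the partner may be counted in. RefSeq spans of other genes overlap 25 of the 77 members, 4 of them among the 5 that rose and 9 among the 37 that fell. Mrps6 overlaps Slc5a3, an inositol transporter gene, which had a log2 change of 0.94 (adjusted p = 0.0544) in the authors' deposited table. Mrpl43 overlaps Twnk, the gene of the mitochondrial DNA helicase, listed under its older symbol Peo1 at 0.24 (adjusted p = 0.398) in the authors' deposited table. Mrpl19 overlaps Gcfc2, at -0.13 (adjusted p = 0.869) in the authors' deposited table and with a mean count of 54.9. Of the falls named below, Mrpl18 overlaps Tcp1, a chaperonin subunit gene with a mean count of 2460 and a log2 change of -0.33 (adjusted p = 0.144) in the authors' deposited table. Mrpl2 overlaps Klc4 (mean 797), Mrpl48 overlaps Rab6a (mean 606), Mrpl37 overlaps Cyb5rl (mean 149) and Mrpl24 overlaps Rrnad1 (mean 124). Mrpl49 overlaps Syvn1, a ubiquitin ligase gene with a mean of 6888 and a log2 change of -1.50 (adjusted p = 1.06e-08) in the authors' deposited table. Values of these 9 members are therefore uncertain to that degree.

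The deepest fall was that of Mrpl24, the counterpart of bacterial L24, an early protein of large subunit assembly (chr3:87918131-87923450). It had 632 and 764 normalized counts in KO and 1982 and 1976 in WT, a log2 change of -1.50 ± 0.20 (SE, adjusted p = 5.19e-13) in the authors' deposited table. It was also the only member called lower with total-count scaling (log2 change -0.69, limma adjusted p = 0.00638). Mrpl47, the counterpart of L29 at the exit of the peptide tunnel, had 89.3 and 86.7 in KO and 206 and 198 in WT, with -1.20 ± 0.32 (adjusted p = 0.000702) in the authors' deposited table. Mrps21, a small subunit protein, had 304 and 304 in KO and 727 and 653 in WT, with -1.18 ± 0.22 (adjusted p = 9.31e-07) in the authors' deposited table. KO libraries agreed closely with each other in both of these.

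Mrpl2, the counterpart of L2, which supports the catalytic centre, had 434 and 441 normalized counts in KO and 1113 and 844 in WT, with -1.16 (adjusted p = 1.57e-06) in the authors' deposited table. Mrpl18, a protein of the central protuberance, had 371 and 395 in KO and 867 and 782 in WT, with -1.11 (adjusted p = 2.00e-06) in the authors' deposited table. Mrpl30 had 602 and 729 in KO and 1462 and 1308 in WT, with -1.06 (adjusted p = 2.28e-06) in the authors' deposited table. All 3 are large subunit proteins with bacterial counterparts. In none did the genotypes overlap, which naming members by their largest called changes favours. Mrpl48, a protein gained in mitochondria, had 161 and 190 in KO and 361 and 366 in WT, with -1.05 (adjusted p = 0.000307) in the authors' deposited table. Mrps18c, which takes the place of bacterial S18 in the small subunit, had 116 and 114 in KO and 240 and 234 in WT, with -1.05 (adjusted p = 0.00154) in the authors' deposited table. None of the 7 after Mrpl24 was called when libraries were set to equal estimated totals.

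**Figure D3:**
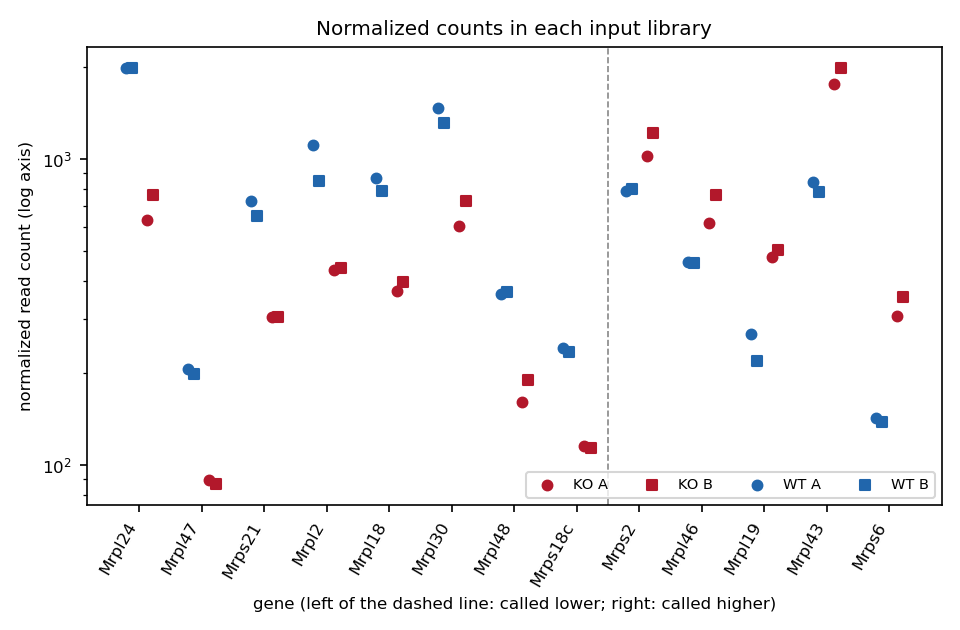
Normalized counts of the 8 members with the largest falls and the 5 that rose, in each input library on a log axis, KO in red and WT in blue. Within each gene the KO and WT points do not overlap, and the points of a genotype lie close together. The genes were picked by their called changes, which favours this.

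Members of both subunits fell more often than they rose. Of the 50 large subunit genes 26 fell and 3 rose in the authors' deposited table, with a median log2 change of -0.52, and of the 26 small subunit genes 11 fell and 2 rose, with a median of -0.44. Normalized counts of the large subunit summed to 2.08 and 2.00 times those of the small subunit in KO A and KO B and to 2.20 and 2.11 times in WT A and WT B, so this ratio was lower in both KO libraries than in both WT libraries. With total-count scaling the medians were 0.30 and 0.38. Of 46 members with a bacterial counterpart 26 fell and 3 rose (median -0.63), and of 30 gained in mitochondria 11 fell and 2 rose (median -0.35). The same order was seen in the large subunit (-0.66 over 30 genes against -0.29 over 20) and the small subunit (-0.54 over 16 against -0.40 over 10). With total-count scaling the medians were 0.19 for members with a bacterial counterpart and 0.47 for those gained in mitochondria. No test was made of these differences.

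The members' levels spanned from 38.9 mean normalized counts (Mrps36) to 2360 (Mrpl12), with a median of 504. Read counts grow with transcript length, which was not used, so these levels do not rank the proteins. Mrpl12, which also binds the mitochondrial RNA polymerase, had 1873 and 1949 normalized counts in KO and 3369 and 2250 in WT, and -0.56 (adjusted p = 0.0288) in the authors' deposited table. Limma at the authors' size factors did not call it (adjusted p = 0.0938), and without WT A its log2 change was -0.24. The counts per library of Mrpl12, Mrpl17, Mrps7 and Mrps12 are each 1 of several solutions that give the deposited mean, so their split between libraries is uncertain. Mrpl17 had 1683 and 2043 in KO and 2703 and 2722 in WT, with -0.54 (adjusted p = 0.0125) in the authors' deposited table. Mrps7, an early binder in small subunit assembly, had 1183 and 1582 in KO and 1743 and 1635 in WT, and was not called in the authors' deposited table (-0.29, adjusted p = 0.270). Mrps12, a protein of the decoding centre, had 1110 and 1297 in KO and 1502 and 1846 in WT, with -0.48 (adjusted p = 0.0472) in the authors' deposited table; limma at the authors' size factors did not call it (adjusted p = 0.0573). Mrps36 had 33.5 and 21.2 in KO and 55.0 and 45.8 in WT, and was not called in the authors' deposited table (-0.88 ± 0.56, adjusted p = 0.206). Across the 77 genes, which are not independent, the log2 change had a rank correlation of 0.068 with the mean count and -0.012 with the gene's span. Over all tested genes these were -0.36 and 0.16.

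The median change of the mitochondrial ribosomal proteins lay between those of cytosolic ribosomal proteins and of respiratory chain subunits. Cytosolic ribosomal proteins, the parts of the ribosome outside mitochondria, had a median of -0.30 over 80 tested genes in the authors' deposited table, with 25 called lower and 2 higher. All names of the same pattern, which adds kinases and a binding protein named for ribosomal proteins, gave -0.29 over 90 genes, with 27 lower and 3 higher. The nuclear-encoded subunits of oxidative phosphorylation had -1.06 over 88 genes in the authors' deposited table, with 79 lower and 0 higher. With total-count scaling the medians were 0.52, -0.24 and, for the mitochondrial ribosomal proteins, 0.31. Of 88 oxidative phosphorylation genes 54 changed at least 2-fold, of 77 members 11 and of 80 cytosolic ribosomal protein genes 1. The SD over genes was 0.28 for cytosolic ribosomal proteins and 0.54 for oxidative phosphorylation. These differences between lists were not tested, and all rest on the same 4 libraries.

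**Figure D4:**
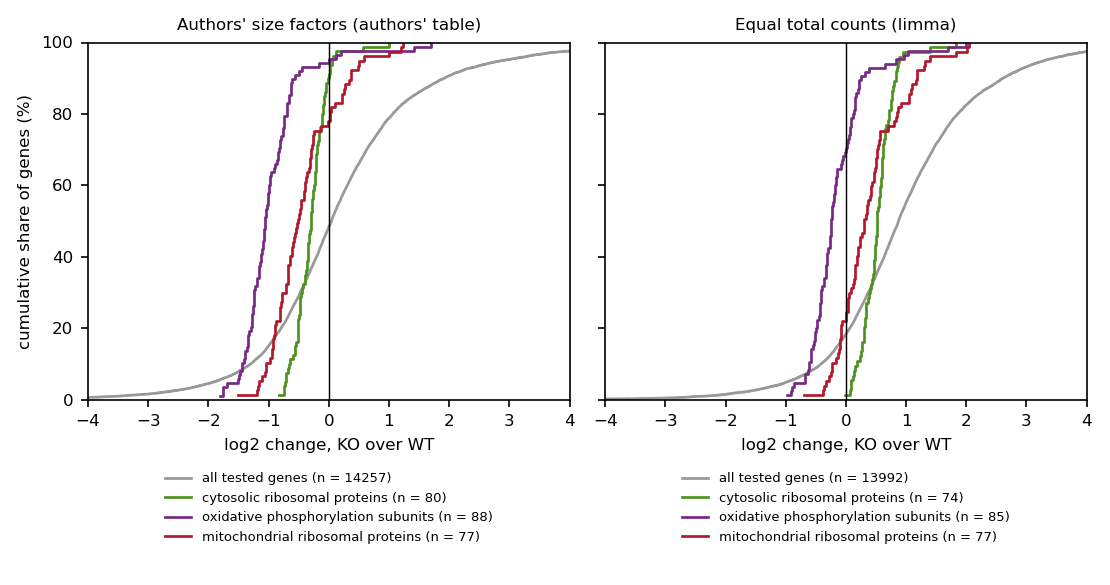
Cumulative share of genes against the log2 change, KO over WT, for the members, cytosolic ribosomal proteins, oxidative phosphorylation subunits and all tested genes, at the authors' size factors (left) and at equal total counts (right). Every curve moves to the right by nearly the same amount between the panels, and the members' curve goes from mostly below 0 to mostly above 0.

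The rest of the pathway was taken from fixed lists of genes. Counts called in these lists stand beside 22.2% called lower and 20.4% called higher over all tested genes. Of 6 ribosome subunits without an Mrp number 3 fell and 0 rose in the authors' deposited table, a median of -0.32. Dap3, a GTP-binding protein of the small subunit, had -1.03 ± 0.21 (adjusted p = 7.85e-06), Aurkaip1, of the small subunit, -0.99 (adjusted p = 1.86e-06) and Ict1, a peptide release factor built into the large subunit, -0.55 (adjusted p = 0.0313) in the authors' deposited table. Ptcd3 (0.21, adjusted p = 0.509), Gadd45gip1 (0.086, adjusted p = 0.775) and Chchd1 (-0.087, adjusted p = 0.805) were not called in the authors' deposited table. None of the 6 was called higher.

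Of 12 translation factors of mitochondria 2 fell and 0 rose, with a median of -0.45. The initiation factor Mtif3 had -1.32 ± 0.25 (adjusted p = 1.21e-06) and the recycling factor Gfm2 -0.66 (adjusted p = 0.00816) in the authors' deposited table. Of 25 ribosome assembly genes 6 fell and 3 rose, with a median of -0.014. Ddx28, a helicase of large subunit assembly, rose most, with 2381 and 3160 normalized counts in KO and 626 and 719 in WT. Its log2 change in the authors' deposited table was 2.04 ± 0.21 (SE, adjusted p = 1.70e-20). Rnmtl1, which methylates the large ribosomal RNA, had 1.74 (adjusted p = 1.30e-09) and Mpv17l2, an assembly factor, -1.38 (adjusted p = 6.86e-08) in the authors' deposited table. Called assembly genes lay on both sides of 0, with 24% called lower and 12% higher, against 22.2% and 20.4% of all tested genes.

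Of 20 mitochondrial tRNA synthetases and related enzymes 7 fell and 5 rose, with a median of -0.028. Among them were Fars2 (-1.09, adjusted p = 2.89e-05), Pars2 (1.49, adjusted p = 0.00051) and Lars2 (-0.94, adjusted p = 1.47e-05) in the authors' deposited table, which charge phenylalanine, proline and leucine. The mean count of Lars2 was 70112, against 909 for Iars2 and 632 for Ears2 in the same list, and its counts per library were not recovered. Of 18 genes of mitochondrial transcription and RNA processing 5 fell and 1 rose, with a median of -0.19: Hsd17b10 (-1.36, adjusted p = 5.72e-10) and Trmt10c (1.21, adjusted p = 7.78e-05), partners in the same RNase P complex, and Tfb2m, a transcription factor (-1.18, adjusted p = 0.000207), led in the authors' deposited table. Of 11 stress proteins and proteases 2 fell and 2 rose, with a median of -0.23; by p-value Clpp (-1.05, adjusted p = 2.05e-06), Yme1l1 (-1.001, adjusted p = 3.09e-06) and Clpx (0.58, adjusted p = 0.0192) came first in the authors' deposited table. Clpp and Clpx code for the peptidase and the unfoldase of 1 protease and had opposite signs.

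Of 11 regulators of mitochondrial biogenesis 3 rose and 1 fell, with a median of 0.21. Myc had 1704 and 1590 normalized counts in KO and 311 and 409 in WT, a log2 change of 2.20 ± 0.22 (SE, adjusted p = 1.57e-22) in the authors' deposited table. The coactivator Pprc1 had 841 and 840 in KO and 210 and 302 in WT, with 1.72 (adjusted p = 2.42e-11) in the authors' deposited table. Both, named for their small p-values, lay above WT in each KO library. The coactivator Ppargc1a had -0.81 (adjusted p = 0.015) in the authors' deposited table, with WT libraries apart at 647 and 380. The genes of the factors whose cores were searched in the promoters were not called in the authors' deposited table for Nrf1 (0.21, adjusted p = 0.598) and Yy1 (-0.19, adjusted p = 0.546). Of the GABP subunits, Gabpb2 rose (0.56, adjusted p = 0.0242), while Gabpa (-0.36, adjusted p = 0.168) and Gabpb1 (0.70, adjusted p = 0.105) were not called in the authors' deposited table. At equal estimated totals Gfm2 (0.16), Ict1 (0.27) and Ppargc1a (0.054), named above as called, changed sign, as did Gabpa (0.46), Yy1 (0.63) and Chchd1 (0.74), which were not called.

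Many members start back to back with another gene. Of the 68 members with a RefSeq start, 24 (35.3%) had a gene of the table starting within 1000 bases on the other strand, against 13.3% of 10720 tested genes. Over the 23 pairs the signs were the same in 16, and 2 of the partners were called higher and 8 lower. Over all tested genes 20.4% were called higher and 22.2% lower. Pairs of other genes were not compared, and 77.9% of members were below 0, so agreement within pairs was not tested. As 37 of the 77 members were called lower and 5 higher, a called member of a pair is mostly one that fell. Both genes were called in 5 pairs, and in all 5 both fell: Mrpl2 with Klc4, Mrpl37 with Cyb5rl, Mrpl47 with Ndufb5, Mrpl49 with Fau, and Mrpl55 with 2610507I01Rik. The genes of the first 2 of these pairs overlap each other, and Mrpl49 overlaps Syvn1, so reads may be shared there. Ndufb5, a subunit of respiratory complex I, had -0.98 ± 0.20 (SE, adjusted p = 7.43e-06) in the authors' deposited table, beside -1.20 for Mrpl47, and the starts lie 308 bases apart. Fau, which codes for a cytosolic ribosomal protein, had -0.63 (adjusted p = 0.00385) in the authors' deposited table, beside -0.77 for Mrpl49.

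Mrpl46 and Mrps11, both members, start 42 bases apart and had opposite signs. Mrps11, a small subunit protein, had 187 and 199 normalized counts in KO and 279 and 311 in WT, and was not called in the authors' deposited table (-0.61 ± 0.27, adjusted p = 0.0524), while Mrpl46 rose by 0.58. In both genes the KO libraries did not overlap the WT libraries, on opposite sides. The stretch between the starts, printed above, holds no ETS, NRF1 or YY1 core.

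m6A peaks were listed in more members in KO than in WT, as they were for genes at large. In the lists the enrichment is read as a ratio of pulled-down to input RNA and is 1 value per peak and genotype, so it has no error. The WT list held 37 peaks in 28 members (36.4%), against 21% of all tested genes and 32.4% of tested genes averaging at least 100 counts. The KO list held 69 peaks in 50 members (64.9%), against 41.1% and 62.2%. Beside the tested genes averaging at least 100 counts, the members' shares were thus close to the background. Over the 10160 tested genes within the members' own range of mean counts the shares were lower, at 22.66% (WT) and 49.98% (KO). Whether the members stand above the background therefore depends on the set chosen, and no test was made. A peak in both lists was found in 24 members (85.7% of those in the WT list and 48% of those in the KO list), in WT alone in 4, in KO alone in 26 and in neither in 23. By call, peaks in the KO list were in 4 of the 5 members that rose, 24 of the 37 that fell and 22 of the 35 not called, and in the WT list in 2, 12 and 14. Depths of the antibody libraries were not analysed here.

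Most member peaks lay at an end of the gene. In the KO list 43 of 69 (62.3%) began within 300 bases of a RefSeq start and 13 (18.8%) ended within 300 bases of the gene's end. In the WT list these were 14 of 37 (37.8%) and 13 (35.1%). Over all placed peaks 32.0% (KO) and 30.6% (WT) were at the start, and 7.87% and 8.03% at the end. The window is the same for genes of every length. Peaks made of several blocks, which span an intron, were 33 of 69 in the KO list (47.8%) and 5 of 37 in the WT list (13.5%), against 29.1% and 20.6% of all placed peaks. Blocks of 22 WT and 20 KO member peaks overlapped the other list, in 17 genes.

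Members' peaks were of low enrichment beside others, with a median of 7.74 in the WT list and 6.002 in the KO list, against 24.2 and 13.1 for all placed peaks. The highest was in Mrpl37, which codes for a large subunit protein, right behind its start: 509 in WT (chr4:107066569-107066816) and 56.8 in KO (chr4:107066519-107066816). Mrpl2 had 150 in WT (chr17:46646297-46646345) and 16.99 in KO (chr17:46646249-46647480), also at the start. Cyb5rl overlaps Mrpl37 and Klc4 overlaps Mrpl2, with starts 128 and 141 bases apart, so reads of the partner may be counted in these peaks. Mrpl45, which binds near the tunnel exit, had 56.8 in WT (chr11:97328731-97328779) and 37.9 in KO (chr11:97328682-97328730), adjacent peaks inside the gene. Mrpl38 had 50.4 in WT and 11.8 in KO, and Mrps18c 36.9 and 22.9, both at the start. In 17 of the 24 members with a peak in both lists (70.8%) the highest WT value exceeded the highest KO value, against 77.8% of 2731 genes. Member peaks covered a median of 50 bases in the WT list and 100 in the KO list, so these values are not of the same stretches. The peak of Mrpl2, for example, covered 49 bases in WT and 242 in KO.

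Of the members with a peak for WT alone, there were Mrps30, a large subunit protein despite its name, at 44 near the gene's 3′ end (chr13:118380359-118380407), Mrpl50 at 10.97, Mrps5 at 8.48 and Mrpl30 at 7.74. None of the 4 was among the members that rose, and Mrpl30 had fallen. Found only in KO were Mrps10 at 29.8, Mrpl47 at 26.9 and Mrps22 at 19.4, all within 300 bases of a RefSeq start. Mrpl24, the member with the deepest fall, had a peak of 29.2 in WT (chr3:87919545-87919693) and of 6.22 in KO (chr3:87919545-87921904). Both begin 1 base behind a RefSeq start that lies inside the gene's span given above. Of the members that rose, Mrpl43 had peaks in both lists, at 3.07 in WT and 2.43 in KO, Mrpl19 had one of 18.6 in the KO list alone, and Mrps6 had none in either list. Mrpl12 kept a peak at its start in both lists (chr11:120484720-120484768; 2.08 in WT and 2.26 in KO), while its peaks at the 3′ end did not overlap (chr11:120488356-120488604 at 5.82 in WT, chr11:120488606-120488704 at 2.28 in KO).

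**Figure D5:**
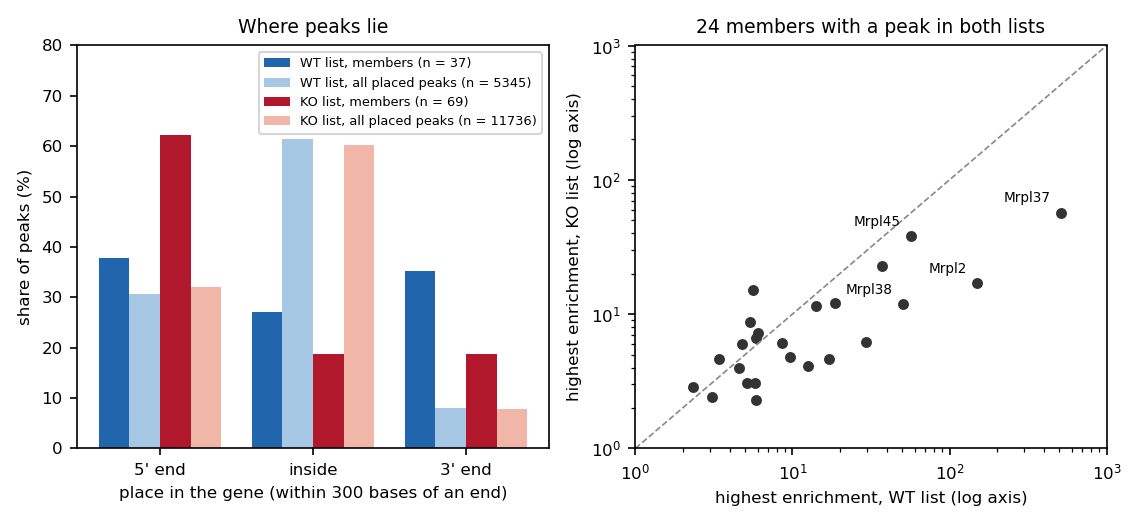
Left, share of peaks that begin within 300 bases of the gene's start, end within 300 bases of its end or lie between, for members and for all placed peaks of each list. Right, highest enrichment per gene in the WT and KO lists on log axes for the 24 members with a peak in both, with a dashed line of equality. Of the points, 17 lie below the line, Mrpl37 farthest to the right at 509 in WT. Peaks of the WT and KO lists differ in width.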

How the data were processed

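Polyadenylated liver RNA was sequenced in 8 libraries. HISAT2 2.1.0, DESeq2 1.18.1 and the build mm10 are named in the submitters' processing notes; read counter, annotation and peak caller are not stated in the sources used here. In the authors' deposited table the mean is a signal, the mean of counts divided by size factors; the fold change and its SE are log2 values, per the file headers, the test value is a score (Wald statistic), and each p-value and adjusted p-value is the authors'. Each peak of the deposited lists has an enrichment, read here as a ratio, and a value between 0 and 1 as a p-value whose adjustment is not stated. Peak starts were read as counted from 0.

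Counts per library were recovered as whole numbers whose scaled sum gives the deposited mean, for means up to 10000 and guided by the deposited fold change; size factors were 1.25, 1.18, 0.927 and 0.743. For 7 members (Mrpl12, Mrpl15, Mrpl17, Mrpl20, Mrps7, Mrps12 and Mrps18b) several solutions gave the deposited mean. The only 1 within a log2 difference of 0.02 from the deposited fold change was taken. For 265 genes without counts, 181 of them above that mean, library totals were filled in from the deposited mean and fold change. Tested on simulated data, 994 of 998 sets of counts were recovered, all correctly. The simulated fold changes were taken straight from the simulated counts. Deposited fold changes differed from those of the recovered counts by up to 0.163 in log2 (median 0.0014) over the 8885 genes compared. The simulation therefore cannot show how often a choice among several solutions is right in the deposited data. Which library is which replicate cannot be told, so they are called A and B. Alternatives used limma 3.58.1 with a trend (R 4.3.3) on log2 of normalized counts plus 1, with p-values adjusted over all genes by the Benjamini-Hochberg method. Tested on simulated data with 12582 genes, of which 100 changed 2-fold and 100 by a log2 of 2, this fit found 45% of the 2-fold changes. In the deposited data far more genes were called at the authors' size factors (3466 higher and 3187 lower of 15868), so this share need not hold there. Members, lists and the rule for named genes were chosen with earlier results of these data known. Named are members with the 8 largest called changes each way, the 4 highest and 2 lowest means, the 6 highest enrichments per list and peaks in the WT list alone, all subunits without an Mrp number, and up to 3 called genes with the smallest p per list; other names were chosen after their values were seen.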

Additional observations from a re-analysis of the deposited data

How the results depend on the processing

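No paired analysis was possible because the recovered libraries carry no replicate numbers. An adjusted p below 0.01 left 3 members higher and 25 lower, and a minimum of 2-fold left 3 higher and 8 lower. With total-count scaling 35 were higher and 1 lower, and 49 lay above and 10 below without overlap. The median turned to 0.31 for all members, 0.30 for the large and 0.38 for the small subunit. Of the 37 members called lower in the authors' deposited table, only 16 kept their sign in that fit. Mrpl12 (0.29), Mrpl17 (0.27), Mrpl37 (0.33), Mrps10 (0.041) and Mrps12 (0.35) were among those that changed sign. Scaled to recovered reads, an alternative added after seeing the data, 17 were higher and 15 lower, 27 lay above and 35 below without overlap, and the medians were -0.097 for all members, -0.098 for the large and -0.025 for the small subunit. No share over all genes stands beside the counts without overlap at either scaling, so whether members differ there from other genes is not shown. A scaling moves all genes nearly alike, so which falls change sign follows from their size. Upper-quartile scaling gave medians of -0.44 for the large and -0.37 for the small subunit. Leaving out each library in turn gave 0 to 3 members higher and 0 to 22 lower, and a small subunit median between -0.39 and -0.52; each such fit takes the spread of 1 genotype from the other. Limma with a pseudocount of 5, or on genes averaging at least 10 counts, gave 5 higher each and 43 or 44 lower. Requiring an enrichment of at least 4 left peaks in 25 members in WT and 36 in KO. With 2 libraries per genotype, changes may be missed. How often cannot be read from the simulated data, where far fewer genes changed than were called here.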
